A study of Homo sapiens with 2 samples.

Results

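The genes described here encode the HSP70 chaperones of the cytosol and the mitochondria, together with their larger HSP110 relatives. They comprised 9 of the 61806 Ensembl genes in the count table, and were chosen by gene name: HSPA1A, HSPA1B, HSPA8, HSPA13, HSPA14, HSPA4, HSPA4L, HSPH1 and HSPA9. A deposited FPKM value (fragments scaled by gene length and an adjusted library size) exists for 13924 genes, all 9 of these included. HSPA5, the HSP70 of the endoplasmic reticulum (ER), was left out of the group and is used below only for comparison. RNA came from HEL, a human erythroleukemia cell line with a wild-type label for genotype. Cells received L1, a derivative of 3,3′-diindolylmethane, at 1 µM, or 0.5% DMSO as the vehicle, for 24 h. Each treatment was sequenced as 1 library, from RNA enriched for mRNA on capture beads. The DMSO library held 32556872 counts and the L1 library 27135647. No replicate spread exists, so no test was run, and what L1 did and how cultures vary by themselves cannot be separated. Intervals below are 95% intervals of the split of a gene's reads and cover counting error only.

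HSP70 proteins bind short stretches of unfolded polypeptide and release them in a cycle driven by ATP. J-proteins start the ATP hydrolysis, and exchange factors, including the HSP110 proteins and the BAG proteins, take the ADP off again. In erythroid cells, HSP70 is known to shield the transcription factor GATA1 from caspase cleavage. HSPA1A and HSPA1B are the stress-inducible cytosolic forms, which the heat shock factor HSF1 switches on. HSPA8 is the constitutive cytosolic form and also removes clathrin from vesicles. HSPA14 works with the J-protein DNAJC2 at the ribosome, and HSPA13 is an atypical member found with microsomes, so the cytosolic name fits it least. HSPA4, HSPA4L and HSPH1 are the HSP110 proteins. HSPA9, or mortalin, pulls proteins into the mitochondrial matrix and helps build iron-sulfur clusters.

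The positions are those of GENCODE release 29 on GRCh38, the build that the submitters' processing notes give as hg38. HSPA1A lies on the plus strand at chr6:31815464-31817946 and HSPA1B on the same strand at chr6:31827735-31830255. HSPA8 is at chr11:123057489-123063230 (minus strand), HSPA13 at chr21:14371115-14383484 (minus) and HSPA14 at chr10:14838164-14871741 (plus). Of the HSP110 genes, HSPA4 is at chr5:133051962-133106449 (plus), HSPA4L at chr4:127781821-127840733 (plus) and HSPH1 at chr13:31134974-31162388 (minus). HSPA9 is at chr5:138553756-138575724 (minus). All are protein-coding genes. The counts of a gene are the reads the authors assigned to it as a whole.

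The coding sequences of HSPA1A and HSPA1B are shown first, because so few of their bases differ. Both are 1926 bases long in the reference and differ at 4 positions. Counted from 1 at the A of the start codon, with the HSPA1A base first, these are G1710T, G1860C, C1905T and A1920G. The first 1709 coding bases are identical in this reference, a run far longer than the sequencing reads of 150 bases. The paper, citing earlier work, names amino acid differences between the proteins that would fall inside this run. The alleles of HEL were not examined. The stretch from coding position 1860 to 1920 holds 3 of the 4 differences, which are in capitals:
HSPA1A: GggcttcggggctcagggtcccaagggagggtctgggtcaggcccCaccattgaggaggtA
HSPA1B: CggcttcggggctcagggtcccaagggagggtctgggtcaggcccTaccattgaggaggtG
No other pair of members came close to this. The next most alike coding sequences, HSPA1A and HSPA8, were 73.8% identical, and their longest shared run was 23 bases. HSPA4 and HSPA4L were 67.1% identical, also with a longest run of 23 bases.

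Heat shock factors bind repeats of the unit GAA in alternating directions. RefSeq promoter windows (GRCh38.p14, 250 bases before to 50 after the start site) were found for 8 of the 9 members, with 10 windows in all. They were searched for a pair of units, GAANNTTC or TTCNNGAA, each of which reads the same on both strands. A longer match has 3 units, in which GAANNTTC and TTCNNGAA overlap by the TTC or the GAA they share. A pair of units stood in 5 windows of 5 members, against 13.5% of all 35116 windows. The longer match stood in 1 member, HSPA8, at 2 places, while 0.49% of all windows hold it. HSPA4L held a pair in 1 of its 3 windows, at -170 from the start site, and HSPA9 held one at -4. Printed below, with the units in capitals, are the matches of the stress-inducible pair and those of HSPA8, the member with the longer match. They are at chr6:31815429-31815452 (plus strand, -114 to -91 from the start site), chr6:31827625-31827648 (plus, -113 to -90), and, for HSPA8 on the minus strand, chr11:123062346-123062374 (-238 to -210) and chr11:123062171-123062199 (-63 to -35). HSPH1, HSPA4 and HSPA13 held no match in these windows. A match here is a run of letters and no measured binding site.
HSPA1A: aaaccctgGAAtaTTCccgacctg
HSPA1B: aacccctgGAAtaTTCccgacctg
HSPA8, far match: gcgagcttGAAagTTCcaGAAcgctgcgg
HSPA8, near match: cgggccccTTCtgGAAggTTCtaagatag
Over the 250 bases before the start site, the HSPA1A and HSPA1B promoters were 93.6% identical, and the 8 bases of the unit pair with its spacer were the same in both.

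In FPKM, which is corrected for gene length, the constitutive HSPA8 stood far above the rest. The gene length behind these values is not known here, and the order of genes can depend on it. The annotated exons cover 8254 bases in HSPA9 and 8390 in HSPH1, while their transcripts with the longest coding sequence have 2825 and 3570. For HSPA4 the same lengths are 5153 and 4825 bases. HSPA8 had 410.5 FPKM under DMSO and 727 under L1, and ranked 69 and 35 among all 13924 genes. It made up 67.6% of the summed FPKM of the 9 members in DMSO and 73.5% in L1. HSPA9 had 57.6 FPKM in DMSO and 66.5 in L1, and HSPA4 had 55.7 and 73.1. In these FPKM, HSPA9 was thus second in DMSO and HSPA4 in L1. HSPA9 had more counts than HSPA4 in both libraries, and its transcript is the shorter one. The place of HSPA4 above HSPA9 in L1 therefore depends on the length used. Next in DMSO were HSPA14 with 21.3 and 27.5 FPKM, HSPA13 with 20.9 and 22.2, and HSPH1 with 19.5 and 44.6. HSPH1 was below HSPA14 and HSPA13 in DMSO but above both in L1, and its order in DMSO also depends on the length used. The FPKM rank of HSPH1 among all genes went from 2391 to 957. HSPA1B had 12.3 FPKM in DMSO and 24.5 in L1, below HSPA13 in DMSO and above it in L1. HSPA1A had 6.74 FPKM in DMSO and 0.53 in L1, and so went from the eighth to the lowest place. HSPA4L was low in both libraries, with 2.91 and 3.18 FPKM. The counts behind these values range from 35, for HSPA1A in L1, to 96639, for HSPA8 in L1. In such bulk RNA, fewer cells of a kind and less RNA per cell cannot be told apart.

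**Figure D1:**
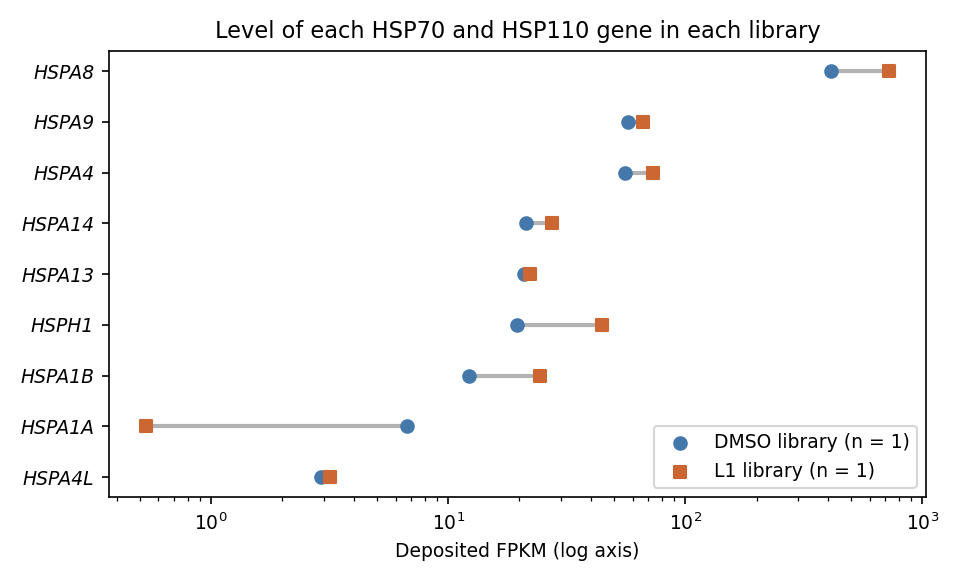
Deposited FPKM of each gene on a log axis, with 1 point per library (circles, DMSO; squares, L1; n = 1 each, no error bars). HSPA8 lies at 410.5 and 727 FPKM, HSPH1 and HSPA1B move to the right, and HSPA1A moves to the left, from 6.74 to 0.53.

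Of the 9 genes, 8 had more scaled reads in the L1 library and HSPA1A had fewer. Of all genes with at least 10 counts in a library, 49.6% were higher in L1. With at least 500 counts, which every member reached, the share was 45.5%. The log2 ratios of L1 over DMSO, from counts scaled by edgeR's TMM method, were in descending order 1.19 for HSPH1, 0.99 for HSPA1B, 0.82 for HSPA8, 0.39 for HSPA4, 0.37 for HSPA14, 0.21 for HSPA9, 0.13 for HSPA4L, 0.09 for HSPA13 and -3.67 for HSPA1A. Along this order the counting intervals of HSPA4 and HSPA14 overlapped, as did those of HSPA9 and HSPA4L and those of HSPA4L and HSPA13. The other neighbours were separated by more than counting error. The median was 0.37, the value of HSPA14, against -0.004 over the 18123 genes with at least 10 counts in a library. With HSPA14 summed with MSANTD7, a gene that overlaps it, the median was 0.21.

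At least 2-fold differences (with a prior count of 2) were found in 2 of the 9 members. HSPH1 was higher, as were 7.12% of all 18123 genes kept, and HSPA1A was lower, as were 4.83%. Every member had at least 500 counts in its higher library. Among the 8828 genes at that depth, 2.2% reached 2-fold in the higher direction and 2.34% in the lower. HSPA1B stood just under 2-fold at 1.99, and scaling by total counts or by the upper quartile put it just over. In all, 5.29% of the genes kept had a higher ratio than HSPH1, 7.18% than HSPA1B and 9.36% than HSPA8.

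**Figure D2:**
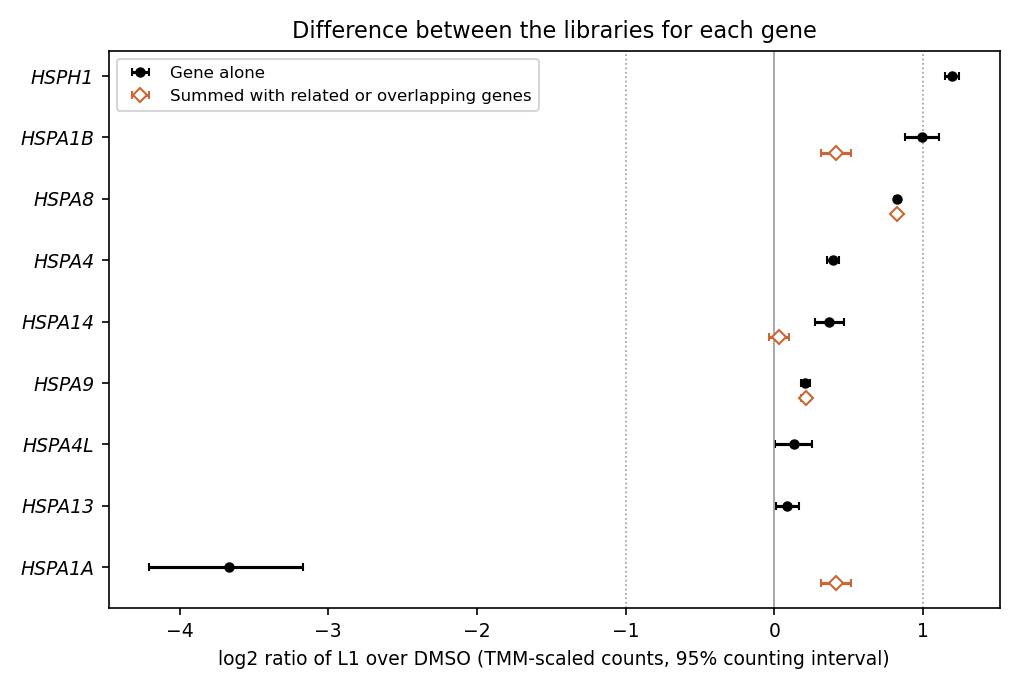
log2 ratio of L1 over DMSO for each gene (filled circles) and for its counts summed with the near-identical, pseudogene or overlapping genes (open diamonds). Bars are 95% counting intervals and dotted lines mark 2-fold. HSPA1A at -3.67 and HSPA1B at 0.99 share a summed value of 0.42, and HSPA14 drops from 0.37 to 0.03.

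The stress-inducible pair showed opposite values. HSPA1A had 35 counts under L1 from 515 under DMSO, 12.7-fold lower, with a log2 interval from -4.20 to -3.17. For HSPA1B there were 984 counts under DMSO and 1690 under L1, with an interval from 0.88 to 1.11. Thus HSPA1A supplied 34.4% of the reads of the pair in DMSO (95% Wilson interval 32.0% to 36.8%) and 2.03% in L1 (1.46% to 2.81%). The reads of both genes together, 1499 in DMSO and 1725 in L1, gave a log2 ratio of 0.42 (0.31 to 0.52). The non-coding gene ENSG00000285565, whose exons overlap HSPA1B on the same strand, was at 0 counts in DMSO and had 109 in L1. With it, the summed log2 ratio was 0.50. By RT-qPCR, the paper that reported these data found the reverse direction for each gene, with HSPA1A higher and HSPA1B lower after treatment. That assay had biological replicates, the same L1 dose and time, and less DMSO in its vehicle. The reason for this difference in direction was not tested. By Western blotting, the paper reported hardly any change in HSP70 protein.

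At a length of 31 bases, this pair can be told apart mainly outside the coding sequence. Of the 31-base words of the coding sequence, 4.43% in either gene are missing from the other. Before the coding sequence, 98.5% of the HSPA1A words and 97.8% of the HSPA1B words are missing from the other gene, and after it all of them are. Over the whole transcript this leaves 631 of 2453 word positions for HSPA1A and 669 of 2491 for HSPA1B. The reads were paired and 150 bases long, so more of them reach a difference than these word shares show. How the counting program placed reads from the identical part is not given in the sources used here, so both single values are uncertain, and its part in their opposite signs was not tested. The sum of the pair does not depend on that placement, except for reads given to other genes or discarded.

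**Figure D3:**
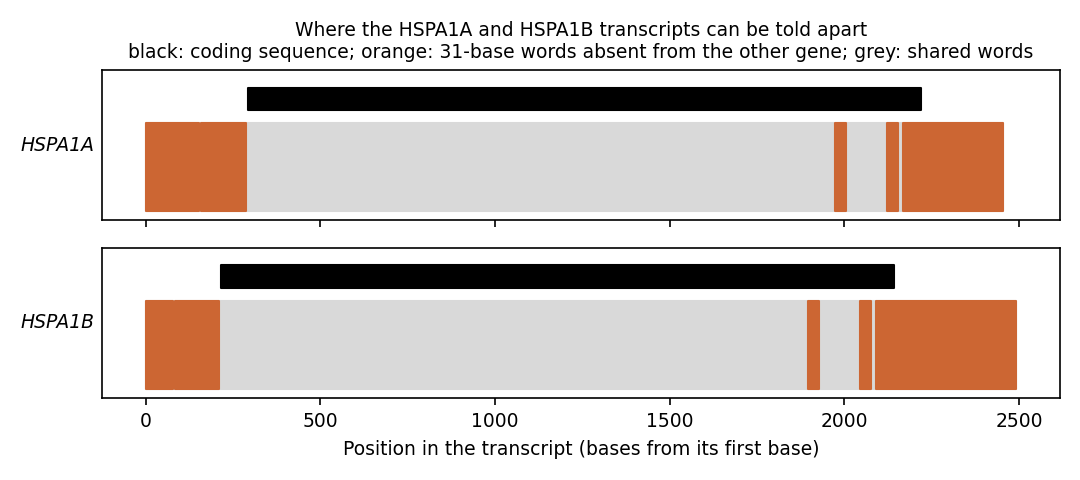
Map of the HSPA1A and HSPA1B transcripts in bases from the first base. The black bar is the coding sequence, orange marks start positions of 31-base words absent from the other gene and grey marks shared words. Orange lies mainly outside the coding sequence, of whose words 4.43% differ, at 84 start positions in each gene.

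HSPA8 carried most of the reads of the family. Its counts were 63271 under DMSO and 96639 under L1, a 1.77-fold higher value with a log2 interval from 0.81 to 0.84. Its share of the reads of all 9 members went from 61.8% (61.5% to 62.1%) to 68.0% (67.8% to 68.3%). Of its 31-base words, 21.4% also occur in another gene, processed pseudogenes among them, which are intronless copies of the mRNA. The 17 genes named as HSPA8 pseudogenes held 83 counts in DMSO and 134 in L1, 0.131% and 0.139% of the counts of HSPA8, and 8 of them were at 0 in both libraries. Among these, HSPA8P5 had 44 and 89 counts (log2 ratio 1.23, 0.69 to 1.78) and HSPA8P9 had 17 and 24 (0.71, -0.25 to 1.70). With all pseudogenes added, the log2 ratio of HSPA8 was still 0.82. The introns of HSPA8 also host small nucleolar RNAs, which guide RNA modification. SNORD14C had 65 counts under DMSO and 33 under L1 (log2 ratio -0.76, -1.42 to -0.14), unlike its host. SNORD14D, with 26 and 20 counts, and SNORD14E, with 13 and 7, had intervals that included 0. Libraries made from captured mRNA hold few reads of such short RNAs.

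HSPA14, the ribosome-associated member, had 1695 counts under DMSO and 1889 under L1, a log2 ratio of 0.37 (0.27 to 0.46). A further protein-coding gene, MSANTD7 (ENSG00000284024), begins at nearly the same base and shares exons with it on the same strand. MSANTD7 had 2173 counts under DMSO and 1520 under L1, and its value of -0.30 (-0.40 to -0.21) had the opposite sign. Of the HSPA14 words, 16.5% also occur in MSANTD7. HSPA14 took 43.8% of the reads of both genes in DMSO (42.3% to 45.4%) and 55.4% in L1 (53.7% to 57.1%). Summed, they had 3868 and 3409 counts, a log2 ratio of 0.03 with an interval from -0.04 to 0.10 that includes 0. Thus the higher value of HSPA14 was not seen for the locus as a whole. Its partner DNAJC2 had 1821 and 2003 counts (0.35, 0.26 to 0.44). HSPA13 had 2762 counts under DMSO and 2530 under L1, a log2 ratio of 0.09 (0.01 to 0.16), and none of its words occur in another gene.

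The HSP110 genes were unequal. HSPH1 had 5194 counts under DMSO and 10253 under L1, 2.29-fold higher, with a fold interval from 2.21 to 2.37. HSPA4 had 8979 and 10177 counts, 1.31-fold higher (1.28 to 1.35). HSPA4L had 1058 and 998 counts, a log2 ratio of 0.13 whose interval from 0.003 to 0.25 began just above 0. Shared sequence was small for the first pair, with 0.2% of the HSPH1 words and 0.305% of the HSPA4 words found elsewhere, and it was 7.98% for HSPA4L. In FPKM, HSPA4 stood 2.86 times above HSPH1 in DMSO and 1.64 times above it in L1. Yet HSPH1 had slightly more counts in L1 and its transcript is the shorter one, so that order depends on the gene length used. The summed reads of these 3 exchange factors had a log2 ratio of 0.71 (0.68 to 0.74). Cytosolic HSP70 (HSPA8, HSPA1A, HSPA1B and HSPA14) amounted to 5.78 times the summed FPKM of the HSP110 genes in DMSO and 6.45 times in L1. The size of these ratios depends on the gene length used as well. An RPL21 pseudogene, RPL21P53, lies on the opposite strand of HSPA4L over one of its exons and had 797 and 546 counts. Whether the counting used strand is not given in the sources used here.

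HSPA9, the mitochondrial member, had nearly the same counts in both libraries, 17897 and 17842. After scaling, the log2 ratio was 0.21 (0.18 to 0.24), 1.16-fold higher. Its FPKM was 7.13 times below that of HSPA8 in DMSO and 10.9 times below in L1, a gap whose size depends on the gene length used. Its pseudogene HSPA9P1 held 17 and 25 counts, and the sum did not move the value. Among 14 partners of HSPA9, all with enough counts, the median log2 ratio was 0.11, with 9 above and 5 below 0 (8 above with DESeq2 size factors), beside 49.6% above 0 among all genes kept. The matrix chaperonin HSPD1, which takes over folding from HSPA9, had 27763 and 30407 counts (0.34, 0.32 to 0.37). HSCB, the J-protein for iron-sulfur cluster assembly, had 190 and 205 counts (0.32, 0.03 to 0.62). The nucleotide exchange factors of HSPA9 had opposite values. GRPEL1 went from 2408 to 3576 counts (0.78, 0.71 to 0.86), while GRPEL2 went from 2009 to 259 (-2.74, -2.93 to -2.55) and was the single partner past 2-fold. Their summed counts, 4417 and 3835, gave a log2 ratio of 0.01 (-0.05 to 0.07). DNLZ, a small protein that keeps HSPA9 soluble, had 116 and 60 counts (-0.74, -1.21 to -0.28).

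Over the whole family, the 9 genes held 102355 counts under DMSO and 142053 under L1. This was 0.314% of all counts in DMSO and 0.523% in L1, and the log2 ratio of the sum was 0.69 (0.67 to 0.70). Without HSPA8 it was 0.43. The summed FPKM was 607 in DMSO and 989 in L1.

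Among all 18123 genes kept, 49.6% had a log2 ratio above 0, and the J-proteins and BAG cofactors of the cytosol can be read beside that share. Of the 21 J-proteins reported here with at least 10 counts, 9 had a log2 ratio above 0 and 12 below, with a median of -0.07. None of these 21 was past 2-fold. DNAJA1, a main J-protein of HSPA8, had 6701 and 9879 counts (0.77, 0.73 to 0.82), DNAJB4 had 570 and 758 (0.62, 0.47 to 0.78) and DNAJB2 had 1027 and 1327 (0.58, 0.46 to 0.70). DNAJB1, the heat-inducible partner of HSPA1A and HSPA1B, had 2108 and 2232 counts (0.30, 0.21 to 0.38). Among 10 BAG and other cofactors, 9 were above 0, with a median of 0.20 and none past 2-fold. The largest were BAG3, the exchange factor of selective autophagy, from 401 to 645 counts (0.90, 0.72 to 1.08), STIP1, the adaptor from HSP70 to HSP90, from 10042 to 13193 (0.61), and BAG2, an inhibitor of the ubiquitin ligase STUB1, from 2201 to 2524 (0.41). BAG1 had 1783 and 1801 counts (0.23).

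Other genes of the heat shock response were mostly a little higher in the L1 library. Of 15 with enough counts, none of them a member, 14 had a log2 ratio above 0, beside 49.6% of all genes kept. Their median was 0.34, and none was past 2-fold in either direction. Some of the 15, DNAJA1, DNAJB1, BAG3, STIP1 and HSPD1 among them, were also counted in the lists above, so this is no separate tally. After BAG3 and DNAJA1, the largest value was that of the HSP90 activator AHSA1, from 2317 to 3319 counts (0.73). The small heat shock protein HSPB1 was below 0, with 2579 and 2053 counts (-0.12, -0.20 to -0.03). The heat-inducible HSPA6 had 403 counts under DMSO and 571 under L1 (0.72, 0.53 to 0.90), and its pseudogene HSPA7 had 104 and 145 (0.69). HSPA1L, the neighbour of HSPA1A, had 11 and 10 counts, HSPA2 had 4 and 8, and HSPA12A and HSPA12B were at 0, which with 3 counts as the limit was not detectable at this depth.

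**Figure D4:**
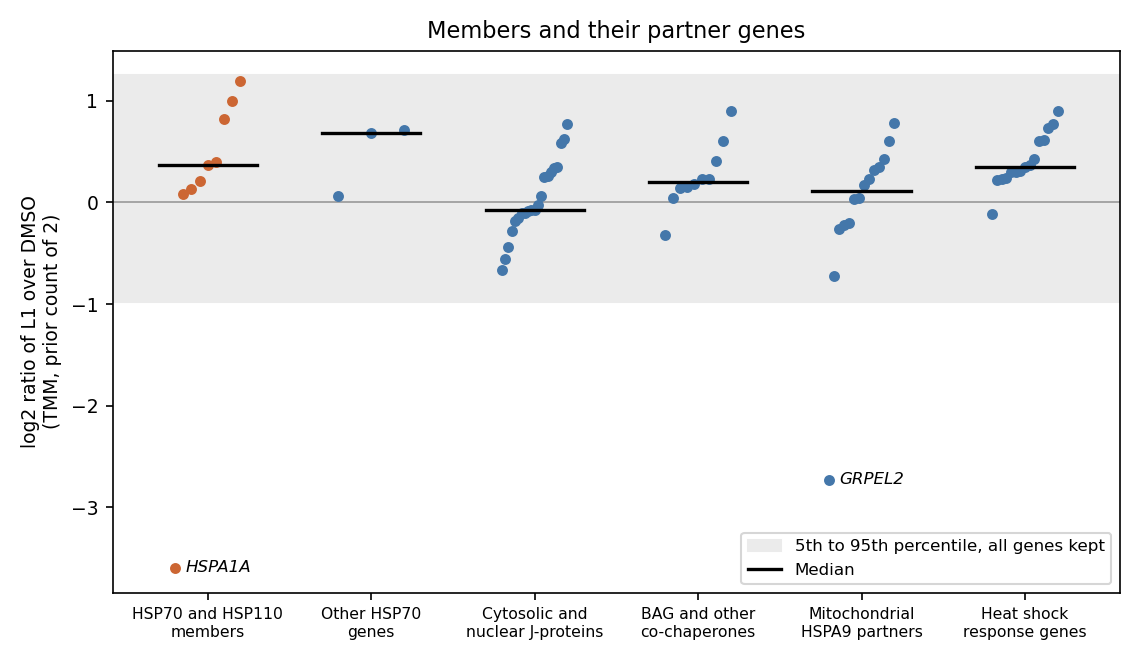
log2 ratio of L1 over DMSO (TMM, prior count of 2) for the 9 members and for 5 groups of related genes with at least 10 counts. Each point is a gene, black lines are medians and the grey band spans the 5th to 95th percentile of all genes kept, from -0.98 to 1.25. HSPA1A and GRPEL2 are the points below the band.

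The ER relatives that belong to the same protein families were also higher. HSPA5 had 6430 counts under DMSO and 16325 under L1, with a log2 ratio of 1.56 that exceeds each member's value, and the ER-resident HSP110 relative HYOU1 had 13243 and 14935 counts (0.39). The label of the cells was checked on 8 erythroid and megakaryocytic markers, of which 7 were detected in both libraries and PF4 was at 0. For instance, GATA1 had 6469 and 5923 counts (0.09), NFE2 3272 and 3844 (0.45), TAL1 13361 and 8138 (-0.50), and HBG1 5620 and 16681 (1.78). Its relative HBG2 had 20283 and 20372 counts (0.22). Markers of T cells, B cells, epithelium and liver were at 0, and COL1A1, a fibroblast marker, had 0 and 5 counts.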

How the data were processed

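RNA of HEL cells under 2 conditions was sequenced in 1 library each, with paired reads of 150 bases. According to the submitters' processing notes, reads were cleaned with fastp and aligned to hg38 with HISAT2 2.1.0, and StringTie is listed with no role. The authors deposited raw counts for 61806 Ensembl genes, without normalization, and FPKM values for 13924 of them. The counting program, the annotation release and the treatment of reads that match several genes are not given in the sources used here.

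Counts were scaled with TMM factors (edgeR 4.0.16 in R 4.3.3), which put DMSO at 1.16 times L1. Single-gene log2 ratios carry no prior count and an exact 95% Clopper-Pearson interval of the read split, and shares carry a Wilson interval. For comparisons across genes, 2 was added as a prior count, with a minimum of 10 counts in 1 library. Symbols were matched for 61757 identifiers. Positions, overlaps and 31-base words came from GENCODE release 29 and promoters from RefSeq, aligned with Biopython 1.88. The scripts were tested on simulated libraries. The members and gene lists were chosen with earlier results of these data known. Some genes of these lists are not reported here and enter no count, median or plot of a list. Named genes are the members, their pseudogenes with at least 10 counts, overlapping genes, small nucleolar RNAs, set partners, and in each list the 3 genes with at least 100 counts farthest from 0. Alternatives were total counts, DESeq2 1.42.0 and upper quartile scaling, FPKM, other prior counts, minimum counts and thresholds, and summed genes.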

Additional observations from a re-analysis of the deposited data

How the results depend on the processing

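With 1 library per condition no replicate could be left out, and no paired analysis was possible because DMSO and L1 are single libraries. Of 36 values of the 9 genes under the other scalings and in FPKM, 28 stayed inside the gene's counting interval, 8 left it with the same sign and none changed sign, with a largest shift of 0.05 on the log2 scale. The FPKM log2 ratios of the 9 genes equal the TMM ones, so these 9 values could not leave the interval and are no separate check. All 8 values that left it came from the other scalings. The median of the 9 members stayed inside the interval of its middle gene, HSPA14, under the other scalings and prior counts. In FPKM it could not move, for the reason just given. The median was 0.21 with HSPA14 summed with MSANTD7, an alternative added after seeing the data. The sum of HSPA1A and HSPA1B stayed inside its interval under each alternative tried. The summed members gave 0.74 with total counts, 0.65 with DESeq2 size factors, 0.72 with the upper quartile, 0.70 in FPKM and, added after seeing the data, 0.43 without HSPA8. The 2 members past 2-fold became 3, with HSPA1B, under total counts and the upper quartile, and 4 at a 1.5-fold threshold. The 1290 genes higher and 876 lower became 2506 and 2065 at 1.5-fold, 3544 and 1811 with no minimum count, 694 and 491 where both libraries needed 10 counts, and, added after seeing the data, 194 and 207 with at least 500 counts in 1 library. Fewer or more genes enter under these minimum counts, which changes the numbers. Genes with few counts, HSPA1A in L1 among the members, have the widest intervals.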
